A study of Caenorhabditis elegans with 14 samples.

Results

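Of the 20315 gene models in the deposited coordinate table, 1353 carry a public name made of sr and further letters, or str, followed by a hyphen and a number. Of these, 13 belong to other proteins by C. elegans nomenclature (serpins, seryl-tRNA synthetases, Src kinases, a Slit-Robo GTPase-activating protein and srf-3), which left 1340 serpentine chemoreceptor genes in 23 subfamilies. The genes were chosen by name, and no polymerase value entered the rule, but earlier results of these data were known. The read densities come from RNA polymerase II chromatin immunoprecipitation with sequencing (ChIP-seq), in which an antibody pulls down the DNA that a protein was fixed to, so that many reads over a gene mean much bound protein. The study set starved first-stage larvae beside fed ones.

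All groups were whole larvae of the wild-type strain N2 that hatched without food and entered L1 arrest, a starvation-induced halt at the first larval stage. They were crosslinked after 6 hr or 12 hr of arrest, or 1 hr after HB101 bacteria were added to larvae arrested for 12 hr. The antibodies S2, 4H8 and 8WG16 recognise the repeat tail of the large polymerase subunit. S2 was used at 6 hr of arrest, at 12 hr of arrest and in recovery, with 1 library each. 4H8 had 2 libraries at 12 hr of arrest and 2 in recovery, and 8WG16 had 1 in each of those states. A single input column, from chromatin without immunoprecipitation, served all 9 libraries.

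Chemoreceptor genes encode serpentine G protein-coupled receptors that sit mostly in the sensory cilia of a few head and tail neurons and detect odours, tastes and pheromones. They form one of the largest gene families of the worm, grouped into the Sra, Str and Srg superfamilies and several solo families, and they lie in clusters that are concentrated on the arms of chromosome V. A single receptor is typically expressed in one or a few pairs of neurons, so in whole larvae a few cells with much polymerase and many cells with little cannot be told apart. No chromatin mark was measured, and silence is described here only as a lack of polymerase.

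The Str superfamily was the largest with 588 genes, followed by Srg with 323, the solo families with 302 and Sra with 127. Chromosome V held 916 of the 1340 genes, or 68.4%, against 24.9% of all gene models. Another 170 lay on chromosome II, 152 on IV, 35 on III, 34 on I and 33 on X. The gene models were short, with a median length of 1583 bp and a range of 574 to 17795 bp. By RefSeq annotation, 45 of them are pseudogenes.

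Depth was 11905000 reads in the input column and 1322000 to 5863000 reads in the ChIP libraries. The median chemoreceptor gene model held 10 to 48 reads per ChIP library, and the median start window, 200 bp over the most upstream annotated start, held 1 to 4. A start window with 3 reads corresponded to 2.56 to 11.3 RPKM (reads per kilobase, scaled to sequencing depth), so a start window difference under that density was not detectable, by counting error alone. Input density reached 5 RPKM in 1244 chemoreceptor gene models and 1015 start windows, and ratios and tests below are over these. The other 96 gene models, 22 of them without any input density, could not be measured this way.

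Polymerase density lay below input over nearly all chemoreceptor genes, with each antibody and in each state. The median ratio of ChIP to input density was 0.409 with S2 at 6 hr of arrest and 0.283 with S2 at 12 hr. It was 0.260 and 0.372 in the 4H8 libraries at 12 hr of arrest and 0.507 with 8WG16. In recovery it was 0.326 with S2, 0.369 and 0.589 with 4H8, and 0.712 with 8WG16. All other genes had medians of 0.580 to 0.728 in the 5 arrest libraries and of 0.631 to 0.874 in the 4 recovery libraries, above the chemoreceptors in each of the 9. Relative to the other genes, the chemoreceptor median was lowest with S2 at 12 hr of arrest, at 0.441, and nearest to parity with 8WG16 in recovery, at 0.815. No test against input was made, since the 1 input column gives no spread of its own.

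**Figure D1:**
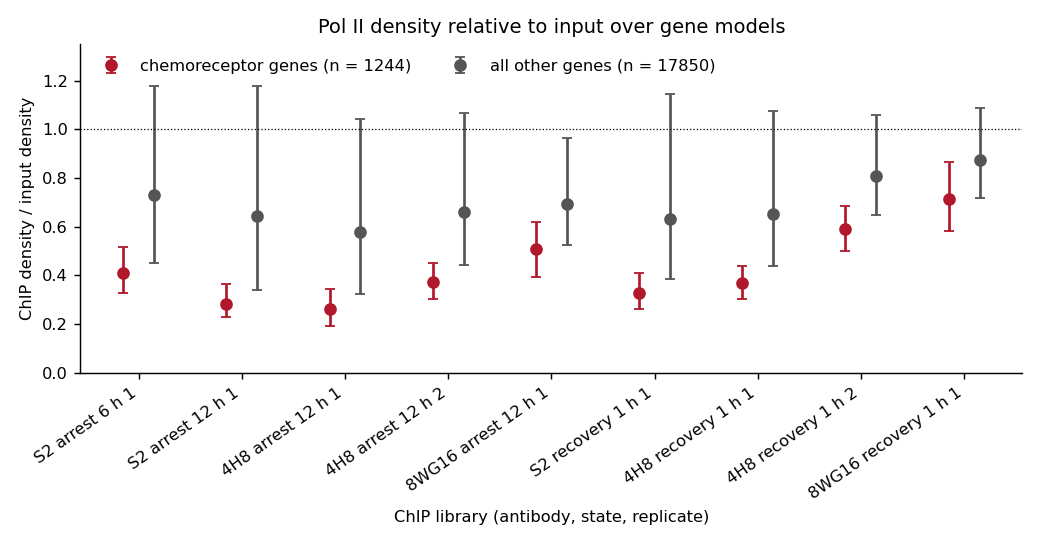
Ratio of ChIP to input density over gene models (y axis, linear) in each of the 9 libraries (x axis), as the median (points) and quartiles (bars) over chemoreceptor genes and over all other genes with input of at least 5 RPKM. The dotted line marks equal density. Chemoreceptor medians run from 0.260 to 0.712 and lie under the other genes in each library, and the quartiles of the other genes are narrowest with 8WG16 in recovery.

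The libraries themselves differed in how far genes spread around input. The quartiles of the other genes were 0.341 and 1.18 with S2 at 12 hr of arrest, and 0.719 and 1.09 with 8WG16 in recovery. The second 4H8 recovery library was also narrow, with quartiles of 0.650 and 1.06. The chemoreceptor ratio was highest in these narrow libraries, and the part of this spread in the ratio was not tested.

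Density was below input in all 9 libraries for 1050 of the 1244 chemoreceptor genes, or 84.4%, where 48.1% of all genes tested met the same criterion. A further 136 were at or above input in 1 library, which for 114 of them was 8WG16 in recovery. Only 24 genes reached input in 5 or more libraries, and 6 did so in all 9. Those 6 were srt-47, srb-7, srz-83, srx-125, srj-16 and srd-35, named after their values were seen.

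Over start windows the chemoreceptor median was also below that of all other genes in each library. In the 9 libraries the start window medians of the chemoreceptors were 0.410 to 0.709 of those of all other genes, against 0.441 to 0.815 over gene models. When each gene was given its median ratio over the 4 libraries of 12 hr of arrest, the middle chemoreceptor gene model stood at 0.332 and the middle other gene at 0.637. Over the 4 recovery libraries these values were 0.477 and 0.726.

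Low density was common to the subfamilies. Among the 19 with at least 10 measured genes, the median ratio ran from 0.310 to 0.371 at 12 hr of arrest and from 0.434 to 0.526 in recovery, and each of the 19 was higher in recovery at the scaling to sequencing depth that the authors used. At 12 hr of arrest the lowest were sru, at 0.310 over 40 genes, and srbc, at 0.311 over 68 genes. The highest were sre, at 0.371 over 49 genes, and sra, at 0.367 over 30 genes. The largest subfamilies, srh with 212 measured genes and str with 176, stood at 0.322 and 0.328. The quartiles of srh were 0.280 and 0.394, wider than the whole range of subfamily medians, and the quartile ranges of the 19 subfamilies all overlapped. Of the 4 smaller subfamilies, srm, srn and srr had 0.373 to 0.380 at 12 hr of arrest, and sro, with a single gene, had 0.572 and reached 0.852 in recovery, above the 0.726 of all other genes.

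**Figure D2:**
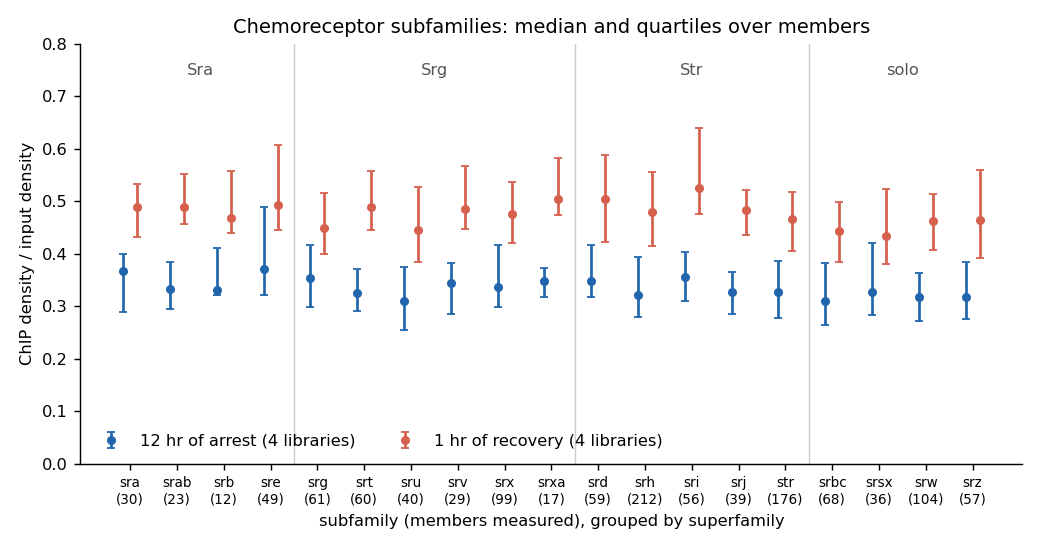
Ratio of ChIP to input density (y axis, linear) for the 19 subfamilies with at least 10 measured genes, with the number of genes in brackets, as the median (points) and quartiles (bars) over genes of the per-gene median of 4 libraries at 12 hr of arrest and of 4 in recovery. Arrest medians lie between 0.310 and 0.371 and recovery medians between 0.434 and 0.526, with overlapping quartiles between subfamilies.

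The superfamilies differed as little. At 12 hr of arrest the Sra, Srg and Str superfamilies had medians of 0.350, 0.336 and 0.332, and the solo families had 0.319. Annotated pseudogenes, 39 of which could be measured, had 0.324 against 0.332 for the 1205 protein-coding members. In recovery these were 0.468 and 0.478.

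The chromosomes were closer to each other over chemoreceptor genes than over other genes. Chemoreceptor medians at 12 hr of arrest were 0.326 on chromosome V, 0.326 on IV, 0.335 on X, 0.356 on II, 0.365 on I and 0.375 on III. Other genes ran from 0.518 on chromosome V to 0.839 on III. When each chromosome was split by length into equal left, middle and right parts, the chemoreceptor median was 0.363 in the middle, 0.329 on the left and 0.323 on the right. The other genes had 0.762 in the middle and 0.570 and 0.574 on the sides. The 7 measured members in the middle of chromosome I had a median of 0.704, with quartiles of 0.347 and 0.837.

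Median density was lower beside more chemoreceptor neighbours. Genes with no chemoreceptor on either side had a median ratio of 0.366 at 12 hr of arrest (382 genes), those with 1 had 0.327 (503 genes) and those with 2 had 0.310 (359 genes). In recovery the values were 0.497, 0.474 and 0.455. The quartiles overlapped, from 0.313 to 0.475 without such a neighbour and from 0.267 to 0.363 with 2.

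Other large families and the sensory machinery were set beside the receptors. The gcy genes, which encode guanylyl cyclases, had medians of 0.400 at 12 hr of arrest and 0.549 in recovery over 32 genes. F-box genes, another large family, had 0.372 and 0.469 over 279 genes. The msp genes, which encode major sperm proteins, had 0.308 and 0.529 over 14 measured genes. Ribosomal protein genes had 1.22 and 4.72 over 76 genes. Genes active in all neurons (12 markers such as unc-119 and rab-3) had 1.20 and 1.19, and none of the 12 was below input in all 9 libraries. Genes of sensory cilia, over 14 markers, had 0.548 and 0.676.

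Genes that act with the receptors gave mixed densities. The chemosensory transduction list of 35 genes, 33 of them measurable, had medians of 0.550 and 0.663. Its highest members at 12 hr of arrest were the G protein subunits egl-30, at 5.38, and goa-1, at 2.70, together with the calcineurin gene tax-6, at 3.08, all of which act widely outside sensory neurons. The cyclic nucleotide-gated channel genes tax-4 and tax-2, used by a small set of sensory neurons, had 0.456 and 0.392. The diacetyl receptor gene odr-10, whose name the pattern does not match, had 0.400 and 0.616. By feeding, where 10.6% of all genes tested rose and 5.62% fell, 1 of the 33 list genes rose, gpa-1, by 0.35 on the log2 scale (SE 0.10, adjusted p = 0.041 by limma), and 2 fell, gpa-12 by 0.46 (adjusted p = 0.027) and egl-4 by 0.35 (adjusted p = 0.041). Each of these 3 calls was lost without single libraries, at adjusted p of up to 0.12 for gpa-1, 0.11 for gpa-12 and 0.13 for egl-4.

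Receptors with a known neuron or ligand were no exception as a group. The 23 chosen for this included str-2, which marks one AWC olfactory neuron, str-1 of AWB, sra-6 of ASH, and srg-36 and srg-37, which encode receptors of an ascaroside pheromone. Of the 23, 20 were below input in all 9 libraries, and the 23 had medians of 0.363 at 12 hr of arrest and 0.493 in recovery. By feeding, in the fit without the pairing of libraries, 0 of the 23 passed, where 10.6% of all genes tested rose and 5.62% fell. Densities of str-2 were 0.319 of input at 12 hr of arrest and 0.351 in recovery, and those of srg-36 were 0.385 and 0.600.

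One of the 23, sre-1, a receptor gene of the ADL neurons, stood above input in 8 of 9 libraries. Its input density was 7.31 RPKM. Its density was 14.0 RPKM at 6 hr of arrest, 13.6 with S2, 9.71 and 8.33 with 4H8 and 7.51 with 8WG16 at 12 hr. In recovery it was 12.99 with S2, 9.94 and 6.39 with 4H8 and 7.77 with 8WG16. The arrest and recovery values overlapped, and the change was -0.06 (SE 0.11, adjusted p = 0.73 by limma). With the greater of input and median input as denominator, its start window ratio was only 0.191 to 0.389 as the median of a state. By that denominator its neighbours B0495.9, 1075 bp upstream, and tag-178, 426 bp downstream on the opposite strand, had highest state medians of 1.26 and 1.24. The gene model of sre-1 itself then had 1.28 at 6 hr of arrest, 0.823 at 12 hr and 0.808 in recovery.

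Polymerase was counted as present where the ratio of ChIP density to the greater of input density and median input density (10.96 RPKM over gene models, 10.08 RPKM over start windows) reached 2 in a state. Over the gene model or the start window, 19 of the 1340 chemoreceptor genes met this, or 1.42%, against 17.2% of all genes. Of the 19, 6 met it over the gene model, where 9.61% of all genes did, and 13 over the start window, where 13.3% of all genes did. None met it over both. The ratio of a state was the median over its 4 libraries, or the single value at 6 hr of arrest. The count rests partly on 1 library: without S2 at 6 hr of arrest, 12 genes remained, and srd-4, srx-125, srh-24, srt-30, srw-1, srz-6 and str-99 dropped out. The nearest genes under the threshold were srj-16, at 1.87 over the gene model, and srx-28, at 1.91 over the start window, and the nearest above it were srd-4, at 2.01, and srw-1, at 2.03.

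**Figure D3:**
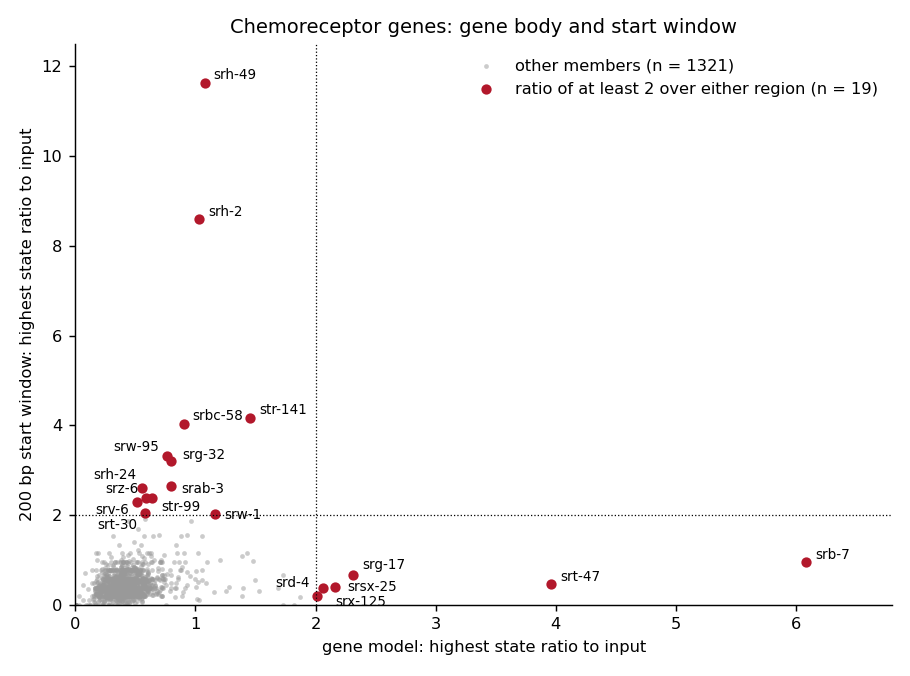
Highest state ratio to input (denominator the greater of input and median input) over the gene model (x axis, linear) and over the 200 bp start window (y axis, linear) for the 1340 chemoreceptor genes, each point a gene. The 19 named genes reach 2 (dotted lines) over one region and stay below 2 over the other.

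Each of the 6 genes with polymerase over the gene model had a converging neighbour, a gene on the opposite strand whose end lies 47 to 130 bp downstream of the receptor gene's end. Among all 1340 chemoreceptor genes, 115 had an opposite-strand gene within 200 bp downstream. The start window ratio of each of the 6, over the greater of input and median input, was under 1 in every state. In this group srt-47 and srb-7 were the highest.

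The gene srt-47 (chromosome IV, 15049372 to 15053332, minus strand, WS190) had 18.4 RPKM in the input. Its density was 63.2 RPKM at 6 hr of arrest, 66.03, 50.6, 56.0 and 54.1 at 12 hr with S2, the 2 4H8 libraries and 8WG16, and 124, 82.1, 59.3 and 63.98 in recovery in the same order. It was high in all 9 libraries, and the arrest and recovery values overlapped (change 0.45, SE 0.15, adjusted p = 0.075 by limma, or 0.040 without the second 4H8 recovery library). Its converging neighbour Y41E3.11 lies 47 bp away. With S2 and 4H8 this neighbour had 35.5 to 39.1 RPKM at 12 hr of arrest and 52.3 to 79.3 in recovery. With 8WG16 it had 18.81 and 26.97, so its arrest and recovery values also overlapped across antibodies. Y41E3.11 rose by 0.66 (adjusted p = 0.0080 by limma). That call was lost without S2 at 12 hr of arrest (adjusted p = 0.052) and when scaled on the chemoreceptors (0.62). The start window of srt-47, on the far side from this neighbour, stood at 0.194 to 0.459 of input as the median of a state.

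The pseudogene srb-7 (chromosome III, 7177459 to 7178782, plus strand) lies 130 bp from rps-14, which encodes a protein of the small ribosomal subunit. Its density was 13.4 RPKM at 6 hr of arrest, 18.8, 14.6, 10.7 and 6.27 at 12 hr, and 120, 80.1, 42.2 and 53.2 in recovery, over an input of 5.71. All recovery values exceeded all arrest values, and the change was 2.12 (SE 0.20, adjusted p = 0.00017 by limma). That of rps-14 was 1.90 (adjusted p = 9.8e-05), from 46.8 to 70.5 RPKM at 12 hr of arrest to 171 to 276 in recovery. As the median of a state, the start window of srb-7 reached at most 0.948 of the median input of 10.08 RPKM. With S2 and 8WG16 in recovery it lay above that input. The start window input of srb-7 itself was only 2.94 RPKM. Against this it held 7.72 RPKM at 6 hr, 0, 1.79, 4.31 and 2.96 at 12 hr, and 14.7, 7.78, 1.71 and 11.3 in recovery. These are at most 9 reads per library.

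In srsx-25 (chromosome IV, 13365137 to 13368349, plus strand), 77 bp from agt-1, a gene for a DNA alkyltransferase, density was 15.97 RPKM at 6 hr of arrest and 14.5, 11.1, 12.9 and 9.03 at 12 hr. It was 36.8, 25.5, 21.8 and 13.7 RPKM in recovery. The 8WG16 recovery value fell inside the arrest range, and the change was 0.75 (SE 0.12, adjusted p = 0.0042). The neighbour agt-1 rose by 1.92 (adjusted p = 0.00018), to 136 to 408 RPKM.

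The genes srg-17 and srd-4 changed the other way. In srg-17 (chromosome II, 12473621 to 12475149, plus strand) density was 18.7 RPKM at 6 hr of arrest, 30.2, 18.7, 43.8 and 22.5 at 12 hr, and 4.90, 5.24, 7.37 and 6.43 in recovery. The groups did not overlap, and it fell by 1.57 (SE 0.21, adjusted p = 0.0014 by limma), beside F15A4.8, 103 bp away, which fell by 1.30 (adjusted p = 0.0044). F15A4.8 had 12.4 to 30.3 RPKM at 12 hr of arrest, lower than srg-17 in each of those libraries. In srd-4 (chromosome V, 12184926 to 12186222, plus strand) density was 22.03 RPKM at 6 hr, 21.5, 15.2, 14.1 and 15.99 at 12 hr, and 6.53, 4.8, 3.55 and 8.17 in recovery. The groups did not overlap, and it fell by 1.02 (SE 0.12, adjusted p = 0.00053 by limma), beside ZK863.8, 89 bp away, which fell by 1.54 (adjusted p = 7.9e-05). ZK863.8 had 21.65 to 36.7 RPKM at 12 hr of arrest, higher than srd-4 in each of those libraries.

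The sixth, srx-125, on chromosome V 118 bp from tag-260, had 22.6 RPKM at 6 hr of arrest, 9.33 to 16.3 at 12 hr and 10.2 to 22.2 in recovery. Those ranges overlapped, and its change was 0.02 (SE 0.13, adjusted p = 0.92). The change of tag-260 was -0.23 (adjusted p = 0.13). Across the 6, the receptor gene and its converging neighbour had changes of the same sign in each but srx-125, where neither passed the test. The neighbours were singled out because they adjoin genes chosen by density, and how far reads from the neighbour's end entered the receptor gene model was not tested.

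**Figure D4:**
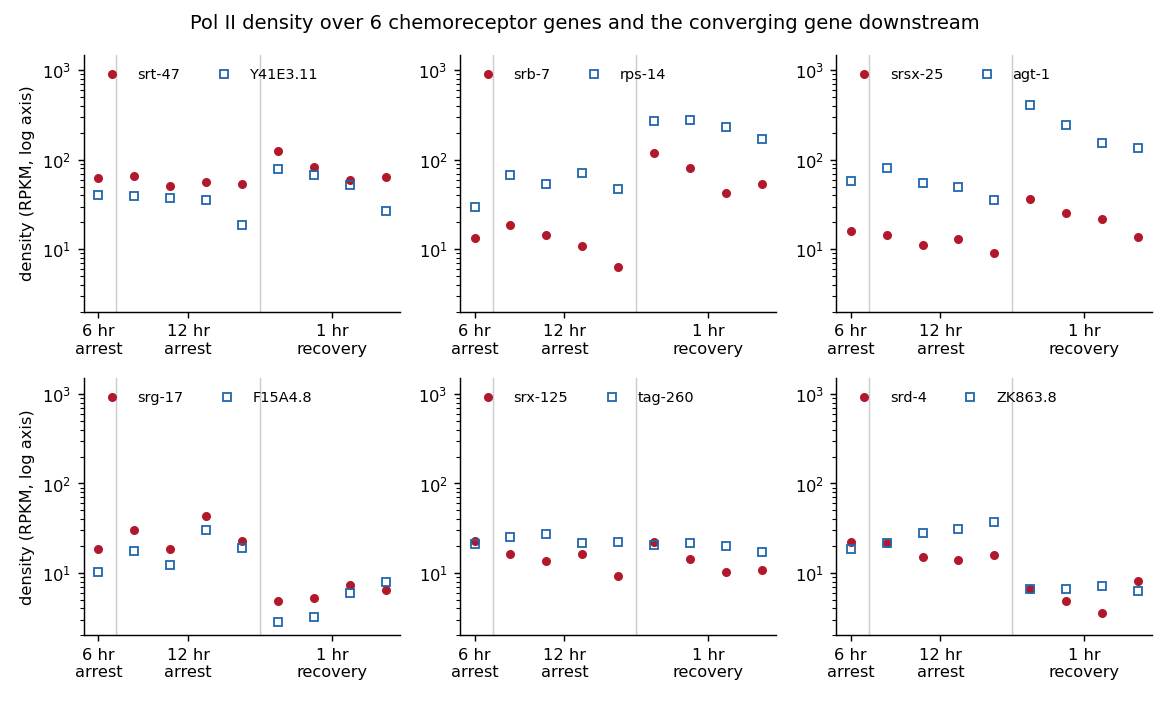
Gene model density in RPKM (y axis, log scale) of the 6 chemoreceptor genes with polymerase over the gene model (filled circles) and of the converging gene 47 to 130 bp downstream (open squares), in each library. Within 12 hr of arrest and within recovery the libraries are S2, 4H8 replicates 1 and 2, and 8WG16 from left to right. srb-7 and srsx-25 are higher in recovery beside rps-14 and agt-1, and srg-17 and srd-4 are lower in recovery beside F15A4.8 and ZK863.8.

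Of the 13 genes with polymerase only over the start window, 10 had a gene on the same strand ending within 400 bp upstream, a layout found in 135 of all 1340 chemoreceptor genes. Over the greater of input and median input, gene model ratios of the 13 ran below 2 throughout. Against their own input, str-141 had 2.08 at 12 hr of arrest and srh-49 had 2.06 at 6 hr. Over start windows the highest were srh-49 and srh-2, with state ratios of up to 11.6 and 8.59.

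The start window of srh-49, on chromosome I, lies 141 bp downstream of pnk-1, a pantothenate kinase gene on the same strand. Its start window density was 117 RPKM at 6 hr of arrest, 133, 77.3, 70.5 and 55.4 at 12 hr, and 24.8, 6.5, 6.98 and 13.3 in recovery. All arrest values exceeded all recovery values, and the start window fell by 2.36 (SE 0.26, adjusted p = 7.9e-10 by limma). Over the gene model of pnk-1 the fall was by 2.13 (adjusted p = 1.75e-05). The gene model of srh-49 itself had a state ratio of at most 1.08 over the median input, and of 2.06 at 6 hr over its own input of 5.74 RPKM.

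The gene srh-2 (chromosome V, 731648 to 734281, plus strand) has gei-7, the gene of the glyoxylate cycle enzyme, 3542 bp upstream on the opposite strand. Its start window held 110 RPKM at 6 hr of arrest, 185, 454, 420 and 237 at 12 hr, and 21.2, 56.7, 49.5 and 41.6 in recovery, over an input of 38.2. The groups did not overlap. The start window fell by 2.77 (SE 0.24, adjusted p = 7.5e-14) and the gene model, with 2.70 to 6.03 RPKM in recovery against 8.77 to 12.2 at 12 hr, fell by 0.85 (SE 0.14, adjusted p = 0.0044). Density over gei-7 was 628 to 1026 RPKM at 12 hr of arrest and 32.02 to 38.6 in recovery, a fall by 4.38 (adjusted p = 7.4e-06).

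The start window of srg-32, 297 bp downstream of ttr-23, a transthyretin-related gene, held 28.9 RPKM at 6 hr, 39.8, 35.7, 30.2 and 71.1 at 12 hr, and 9.77, 7.78, 6.82 and 3.78 in recovery. It fell by 1.99 (SE 0.29, adjusted p = 5.4e-07), and the gene model of ttr-23 fell by 0.90 (adjusted p = 0.0042). The start window of str-141, 159 bp downstream of F47G9.1, held 13.2 to 46.8 RPKM at 12 hr and 4.2 to 36.2 in recovery, overlapping ranges, and fell by 0.92 (SE 0.28, adjusted p = 0.020). F47G9.1 itself had a change of -0.04 over its gene model (adjusted p = 0.80).

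In the opposite direction, the start window of srab-3 (chromosome V, 5105749 to 5107901, minus strand) held 13.5 RPKM at 6 hr of arrest, 1.17, 3.57, 1.08 and 2.96 at 12 hr, and 43.97, 34.5, 26.4 and 30.3 in recovery. These are 1 or 2 reads per library at 12 hr and 8 to 31 in recovery. The groups did not overlap, and the change was 2.43 (SE 0.30, adjusted p = 1.6e-08). Its upstream neighbour ugt-63, a UDP-glucuronosyltransferase gene 261 bp away on the same strand, rose by 1.44 over the gene model (adjusted p = 4.6e-05).

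A further pair of this group lay close behind a gene with a change of its own, srw-95 155 bp behind H06H21.3 and srbc-58 137 bp behind R09E12.3. The start window of srw-95 held 8.02 to 26.3 RPKM at 12 hr and 18.2 to 95.1 in recovery and rose by 1.15 (adjusted p = 0.0027), and H06H21.3 rose by 0.61 (adjusted p = 0.0096). In srbc-58 the start window held 21.03 to 59.6 RPKM at 12 hr and 13.4 to 48.2 in recovery, which overlap, and R09E12.3 rose by 0.54 (adjusted p = 0.023). The call of R09E12.3 was lost without single libraries, at adjusted p of up to 0.086, and that of H06H21.3 without either S2 library, at up to 0.059. Scaled on the chemoreceptors, their adjusted p were 0.70 and 0.63. The other 6, srv-6, srh-24, srz-6, str-99, srw-1 and srt-30, had highest state ratios of 2.03 to 2.61, all at 6 hr of arrest.

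Members were then grouped by the nearest adjacent gene that is no chemoreceptor and had itself a ratio of at least 2 over its gene model. With such a gene 1 to 200 bp away, 10 members had a median ratio of 1.01 at 12 hr of arrest and 0.832 in recovery, and 6 of the 10 were among the 19 with polymerase. With one farther off but within 1000 bp, 8 members had 0.434 and 0.565, and none was among the 19. The 1195 measured members with none adjacent had 0.329 and 0.476, and 12 of the 1288 with none adjacent were among the 19. These groups are defined by the neighbour's density in the same libraries and were not tested.

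**Figure D5:**
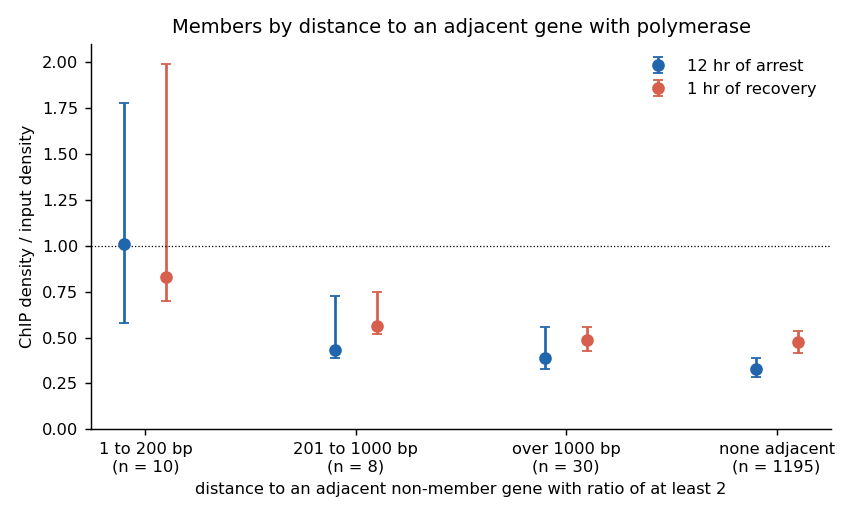
Ratio of ChIP to input density over chemoreceptor gene models (y axis, linear) by distance to an adjacent gene of another family with a ratio of at least 2 (x axis, number of members in brackets), as the median (points) and quartiles (bars) over members. The 10 members within 200 bp have medians of 1.01 and 0.832, against 0.329 and 0.476 for members with none adjacent.

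The count of chemoreceptor genes that changed when larvae were fed depended on whether the pairing of libraries entered the fit, and under both fits the share was below that of all genes in each direction. In a limma fit of the 8 libraries of 12 hr of arrest and recovery, on log2(RPKM + 5) with antibody as a term, 41 of 1244 chemoreceptor gene models rose and 10 fell at a Benjamini-Hochberg adjusted p under 0.05. These are 3.30% and 0.804%, where 10.6% of all genes tested rose and 5.62% fell. The median change was 0.20 over the chemoreceptors and 0.15 over all genes tested. Of the 1244 chemoreceptor changes, 1115 were above 0, a share that was not taken over all genes. With the pair of arrest and recovery libraries as a block, 210 rose and 12 fell, or 16.9% and 0.965%, where 21.5% of all genes rose and 7.12% fell in the same fit. Median library densities were 2.26 to 6.17 RPKM over chemoreceptors and 6.1 to 9.65 over all other genes. The scale understates changes of low genes, so the shares called cannot show whether chemoreceptors responded less.

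The number that rose depended on single libraries. It was 8 without either 8WG16 library and 90 without the first 4H8 recovery library, and 11 to 33 without any other. Scaled on the chemoreceptor median of each library, 10 rose and 27 fell, and after quantile normalization 27 rose and 21 fell, with medians of 0.01 and 0.04. Shares of all genes were not taken in these settings, so whether they stayed above those of the chemoreceptors was not tested. The direction of the family as a whole is given only relative to the scaling to sequencing depth.

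Pair by pair, the median change of the chemoreceptors was 0.06 with S2, 0.16 and 0.29 with 4H8 and 0.26 with 8WG16. That of all other genes was 0.04, 0.14, 0.17 and 0.19. Between 60.1% and 90.1% of chemoreceptor genes were higher in recovery within a pair, where 55.9% to 70.5% of all other genes were. With S2 the shares were 60.1% and 55.9%. The second 4H8 pair and the 8WG16 pair, with the largest medians, are those whose recovery libraries spread least around input.

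Most of the 41 gene models that rose remained poor in polymerase. Their mean over the 8 libraries was below input in 38, and 28 were below input in all 9 libraries. After srb-7, the largest changes were in srab-3, at 0.84, sre-33, at 0.77, srsx-25, at 0.75, srh-169, at 0.66, srh-207, at 0.65, sra-23, at 0.64, srh-1, at 0.60, srd-74, at 0.57, and srd-31, at 0.56, with adjusted p of 0.0022 to 0.039 by limma. In srh-169, for example, density was 4.33, 2.12, 3.27 and 7.05 RPKM at 12 hr of arrest and 9.04, 7.49, 7.44 and 14.0 in recovery, over an input of 11.8. Its groups did not overlap, and so it was for 22 of the 41. The share without overlap was not taken over all genes, so this count describes these members only. Of these 10 calls, those of srb-7, srab-3 and srh-169 held under every alternative that could be fitted for them. Those of sre-33, sra-23, srd-74 and srd-31 were lost without single libraries, at adjusted p of up to 0.098, 0.14, 0.085 and 0.065. Scaled on the chemoreceptors, srsx-25 (adjusted p = 0.24), srh-207 (0.15), srh-1 (0.12), srd-74 (0.12) and srd-31 (0.11) were not called.

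Besides srg-17, srd-4 and srh-2, the gene models that fell were srx-93, by 0.80, sre-13, by 0.58, srz-45, by 0.54, sre-20, by 0.52, srz-83, by 0.50, srt-73, by 0.44, and srbc-20, by 0.39, with adjusted p of 0.014 to 0.047. In 4 of the 10 the groups did not overlap, again a count without a share over all genes. The calls of srg-17, srd-4 and srh-2 held under every alternative fitted, and each of the other 7 was lost without at least 1 library, at adjusted p of up to 0.17. The gene srz-83, one of the 6 above input in every library, held 22.8, 17.5, 15.3 and 12.8 RPKM at 12 hr of arrest and 14.2, 11.4, 8.17 and 8.60 in recovery. These ranges overlapped, over an input of 6.84.

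Adjacent genes of other families were then compared with the members that changed. Of the 41 that rose, 10 adjoined a gene of another family that also rose, or 24.4%, and of all 1244 members 105 did, or 8.44%. Of the 10 that fell, 5 adjoined one that fell, and of all members 48 did, or 3.86%. The share beside changed members was not tested.

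Start windows were called as rarely, and the same limit of low density holds there. In the fit of start window densities, without the pairing of libraries, 14 of 1015 rose and 4 fell. These are 1.38% and 0.394%, against 2.61% and 7.76% of all start windows tested. The 4 that fell were those of srh-2, srh-49, srg-32 and str-141. After srab-3, the windows that rose most were those of srh-127, by 1.65, sre-33, by 1.30, and srw-95, by 1.15, and 11 of the 14 had a mean below input. In srh-127 the window held 0 to 2.34 RPKM at 12 hr of arrest and 4.44 to 26.5 in recovery, over an input of 5.46. Of the 14 named start windows, srab-3, srh-2, srh-49 and srg-32 kept their call under every alternative fitted. Without single libraries 8 lost it, among them srw-95, at adjusted p of up to 0.070, and str-141, at up to 0.18.

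The 4H8 antibody, the only one with 2 libraries per state, was fitted by itself within a model of all 9 libraries. It called 2 chemoreceptor gene models higher, srb-7 and srsx-25, and 3 lower, srg-17, srd-4 and srh-2, where 2.01% of all genes were called higher and 1.45% lower. With the replicate pair as a block, 180 were higher and 11 lower, or 14.5% and 0.884%, where 15.9% of all genes were higher and 4.53% lower in the same fit. The changes were 1.85 (SE 0.28) for srb-7, 0.75 (SE 0.15) for srsx-25, -1.60 (SE 0.32) for srg-17, -1.10 (SE 0.15) for srd-4 and -1.02 (SE 0.17) for srh-2, with adjusted p of 0.014 to 0.050 by limma. All 5 changed the same way in both 4H8 pairs. Without a low-value filter none of the 5 passed, and srsx-25, srg-17 and srh-2 also lost the call without single libraries, at adjusted p of up to 0.22, 0.099 and 0.063.

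Feeding changes were compared between 4H8 and S2 only. The difference between their changes passed for 0 chemoreceptor genes and for 0% of all genes tested. Its median was 0.17 over the chemoreceptors and 0.09 over all genes tested. Between 12 hr and 6 hr of arrest with S2, 0 chemoreceptor genes passed, as for 0% of all genes. The median change from 6 to 12 hr was -0.19 over the chemoreceptors and -0.10 over all genes. Each time had 1 library and borrowed its spread from the 4H8 replicates, and the libraries came from different sequencing runs by their labels, so time and run cannot be told apart.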

How the data were processed

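The authors deposited read densities in RPKM per WS190 gene model and per 200 bp start window, and fold enrichment over input, a ratio, per the file headers; the aligner is not given in the sources used here. Recomputing the deposited enrichment from the densities gave the start window values exactly, and gene values to within the 0.1 that replaces zeros. The tables hold 9 ChIP columns for 10 ChIP samples (the 6 hr column carries the title of the first replicate) and 1 column for 4 inputs, taken as pooled. Whether samples of a group came from separate cultures is given only as biological replication in the series design, and p-values measure the spread between these libraries.

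Depth was recovered from the step of low start window densities, of which 90.1% to 92.0% per library were whole reads within 0.1 read. Genes with an input of at least 5 RPKM were tested with limma 3.58.1 in R 4.3.3 (lmFit, eBayes with trend, two-sided, Benjamini-Hochberg over all genes tested) on log2(RPKM + 5), a scale that understates changes of low genes. The fits were also run on simulated libraries drawn independently, without antibody or run differences, which cannot give the error rate in these data. Symbols were matched to RefSeq (WBcel235) by locus tag for all 1340 genes, 1338 with the same symbol. The other 2, srt-58 and srv-33, are named nhr-290 and ops-1 there and were kept as members. Tables were made with pandas 2.3.3 and numpy 2.4.6, plots with matplotlib 3.10.9, in Python 3.11.15.

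Members and lists were chosen with earlier results of these data known. Named are the members with polymerase, at most 10 per direction and fit by size that moved alike in every pair, 23 receptors with a known neuron or ligand, and neighbours of the members with polymerase. The libraries of a pair share a run identifier in the labels. Deviations of same-numbered 4H8 libraries from their state means had a correlation of 0.352 over all genes (0.330 over members). Over all other genes the second 4H8 library also spread less around input in both states, and its part in this correlation was not tested. The pair entered only an alternative fit, as a block. Per-gene changes, SE and adjusted p, and counts of start windows and listed genes, are from fits without it. Alternatives were other pseudocounts, filters, scalings, denominators, left-out libraries and the block. No sequence is printed, since none was used here.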

Additional observations from a re-analysis of the deposited data

How the results depend on the processing

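Without one library at a time, 8 to 90 chemoreceptor gene models rose and 3 to 8 fell by feeding, with a median change of 0.13 to 0.25. Over start windows 6 to 16 rose and 3 to 6 fell, with medians of 0.10 to 0.20. With 4H8 alone 1 to 12 rose and 1 to 4 fell, with medians of 0.0785 to 0.38; where this left 1 library in a state, it was assumed to vary like the other groups. The medians relative to input were 0.295 to 0.367 at 12 hr of arrest and 0.392 to 0.561 in recovery, and 12 to 20 genes had polymerase. The contrasts of time and of antibody stayed at 0 calls. Shares of all genes were not taken without single libraries.

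The feeding fit of gene models called 6 higher and 4 lower with a mean density of at least 10 RPKM, 6 lower with no filter, and 27 and 21 with quantile normalization. It called 10 and 27 when scaled on the chemoreceptors, and 210 higher with the pairs as a replicate block. Its median was 0.36 with a pseudocount of 1, 0.0416 with quantile normalization and 0.00552 when scaled on the chemoreceptors, the last by construction. The start window fit called 4 higher with the density filter (median -0.0182), 3 with no filter, 8 with a pseudocount of 1 (median 0.33) and 8 when scaled on the chemoreceptors. The 4H8 fit called 0 and 0 with no filter, 1 higher with a pseudocount of 10, 6 lower with quantile normalization (median 0.0438), and 4 and 10 when scaled on the chemoreceptors (median 0.00646). With the replicate block it called 180 higher and 11 lower. Its median was 0.0274 with the density filter and 0.45 with a pseudocount of 1. Scaled on the chemoreceptors, 1 gene was called lower at 12 than at 6 hr and 1 differed between 4H8 and S2. The causes were not tested, and shares of all genes were not taken for these alternatives except the block.

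The 6 hr median relative to input was 0.322 with the greater of input and median input as denominator. Polymerase was counted in 36 genes at a ratio of 1.5, in 8 at a ratio of 3, and in 31 with the input alone as denominator. The share of all genes was taken only at a ratio of 2 over the greater of input and median input, at 17.2%. Whether the contrast with all genes holds at the other settings was not tested. No called chemoreceptor gene named in the text changed sign, and the replicate block lost no call of one. Of the 20 named gene models 6 kept their call under every alternative fitted, as did 4 of 14 start windows and 0 of 5 genes with 4H8. Among 19 other genes whose change is printed, the uncalled srx-125 was at -0.11 with quantile normalization, at -0.29 when scaled on the chemoreceptors and at -0.0909 to 0.13 without single libraries. There sre-1 ran from -0.12 to 0.0323 and F47G9.1 from -0.0680 to 0.000333, and gpa-1 was at -0.0296 when scaled on the chemoreceptors. Including all 1353 pattern matches, an alternative chosen after seeing the data, left the counts within 1.5 times. Start windows of 1 to 4 reads limit what could be seen there.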

Other observations

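The 13 genes that match the naming pattern but encode other proteins were not as low as the receptors. Their median ratio to input was 0.755 at 12 hr of arrest and 0.701 in recovery, and 5 of the 13 were below input in all 9 libraries.

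Among the 6 receptor genes at or above input in every library, srd-35 and srj-16 were the lowest. In srj-16 the ratio to its own input ran from 1.08 to 2.07 over the libraries, with glb-25, a globin gene, 783 bp downstream on the opposite strand. In srd-35 it ran from 1.04 to 1.77, with R186.3 25 bp downstream on the opposite strand. Over the greater of input and median input, the highest state ratios of glb-25 and R186.3 were 0.917 and 1.19.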
